A study of Tupaia belangeri with 6 samples.

Results

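The endocannabinoid receptor and the enzymes that make and break down its ligands were followed through nuclei of the tree shrew (TS; Tupaia belangeri) hippocampus. The genes were taken by symbol from the deposited count tables, which gave 8 features among all those annotated: CNR1, DAGLA, DAGLB, NAPEPLD, MGLL, MGLLli1, ABHD6 and FAAH. All 8 had counts, and together they were detected in every library. Each of 6 libraries held nuclei of the hippocampus of 1 animal, 3 labelled Normal (control TSs) and 3 labelled AD. The latter are named ALP TSs here, for the Alzheimer's-like pathology that gave them their name. Per the study's methods, ALP TSs were naturally aged animals picked by slow passage through a pipeline maze, and controls were healthy animals of matching age, both 5 to 6 years old. The labels give no sex for the single libraries. The number behind each replicate only names it, and nothing in the labels ties a control TS to an ALP TS.

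Endocannabinoids are lipids that neurons release on demand from the postsynaptic side and that act backwards on the terminal. CNR1 encodes the cannabinoid receptor CB1, which sits on axon terminals and lowers transmitter release, in the hippocampus mainly on terminals of basket cells that express cholecystokinin. DAGLA and DAGLB are diacylglycerol lipases that produce 2-arachidonoylglycerol, and NAPEPLD is the phospholipase that releases anandamide and related N-acylethanolamines. MGLL (monoacylglycerol lipase) and ABHD6 hydrolyse 2-arachidonoylglycerol, and FAAH hydrolyses anandamide. MGLLli1 is a separate feature of the annotation whose name begins with MGLL. The sources used here do not explain the suffix, and where near-identical copies exist, counting could have split or dropped reads between them.

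Counts are unique molecular identifiers (UMIs), each standing for 1 captured RNA molecule. Kept nuclei had 200 to 2500 genes and no more than 5% of their UMIs from mitochondria. There were 28233 of them, 14387 of control and 13846 of ALP TSs, with 1614 to 7022 nuclei and 4159545 to 15412799 UMIs per library. Mitochondrial UMIs were counted from 1 feature only, so the limit of 5% could exclude little. Together with the limit of 200 genes it left 8782 of 8785 barcodes in control 1 and 7959 of 7969 in control 3. Nuclei were clustered without the 8 genes and the features named after them, and clusters were named from marker lists. Control 2 stood apart, with the fewest nuclei, with 46.4% of its barcodes over the limit of 2500 genes against 16.0% to 27.7% elsewhere, and with 18.5% InN-like nuclei against 6.17% to 11.9%. Control 3 held only 34 Pyra-like nuclei under this limit. With it, Pyra-like nuclei were 483, 114 and 34 in control and 565, 610 and 461 in ALP libraries. Without it, and with clusters rebuilt, they were 887, 553 and 468 in control and 994, 1296 and 740 in ALP libraries. Any pair of libraries shared at most 0.31% of the barcodes of the smaller one.

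Named classes were interneurons (InN-like, 2472 nuclei), pyramidal neurons (Pyra-like, 2267), dentate granule neurons (Gran-like, 2489), other excitatory neurons (781), astrocytes (Astro-like, 3063), oligodendrocytes (Oligo-like, 8712) and their progenitors (OPC-like, 2509). Smaller ones were microglia (Micro-like, 1370), endothelial (Endo-like, 422), mural (181) and ependymal nuclei (185). A further 2883 nuclei got no name, 2779 for low depth and 104 in a cluster led by mitochondrial or haemoglobin genes. Both are counted as nuclei of low depth below. No name was given either to 832 nuclei of clusters rich in marked doublets and to 47 of a cluster led by RELN. Levels are given as CPM, the UMIs of a gene per 1000000 UMIs of the summed nuclei of 1 class in 1 library. They are not corrected for transcript length, so levels are compared between classes and groups and never between genes.

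In total, CNR1 had 3747 UMIs in 1796 nuclei. DAGLA had 1131 UMIs, DAGLB 4253, NAPEPLD 6769, MGLL 470, MGLLli1 3193 and ABHD6 2642, and FAAH had only 80 UMIs in 77 nuclei. At 28233 nuclei, a count of 3 corresponds to a share of 0.0106%, so all 8 genes were above the level that a count of 0 would allow.

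**Figure D1:**
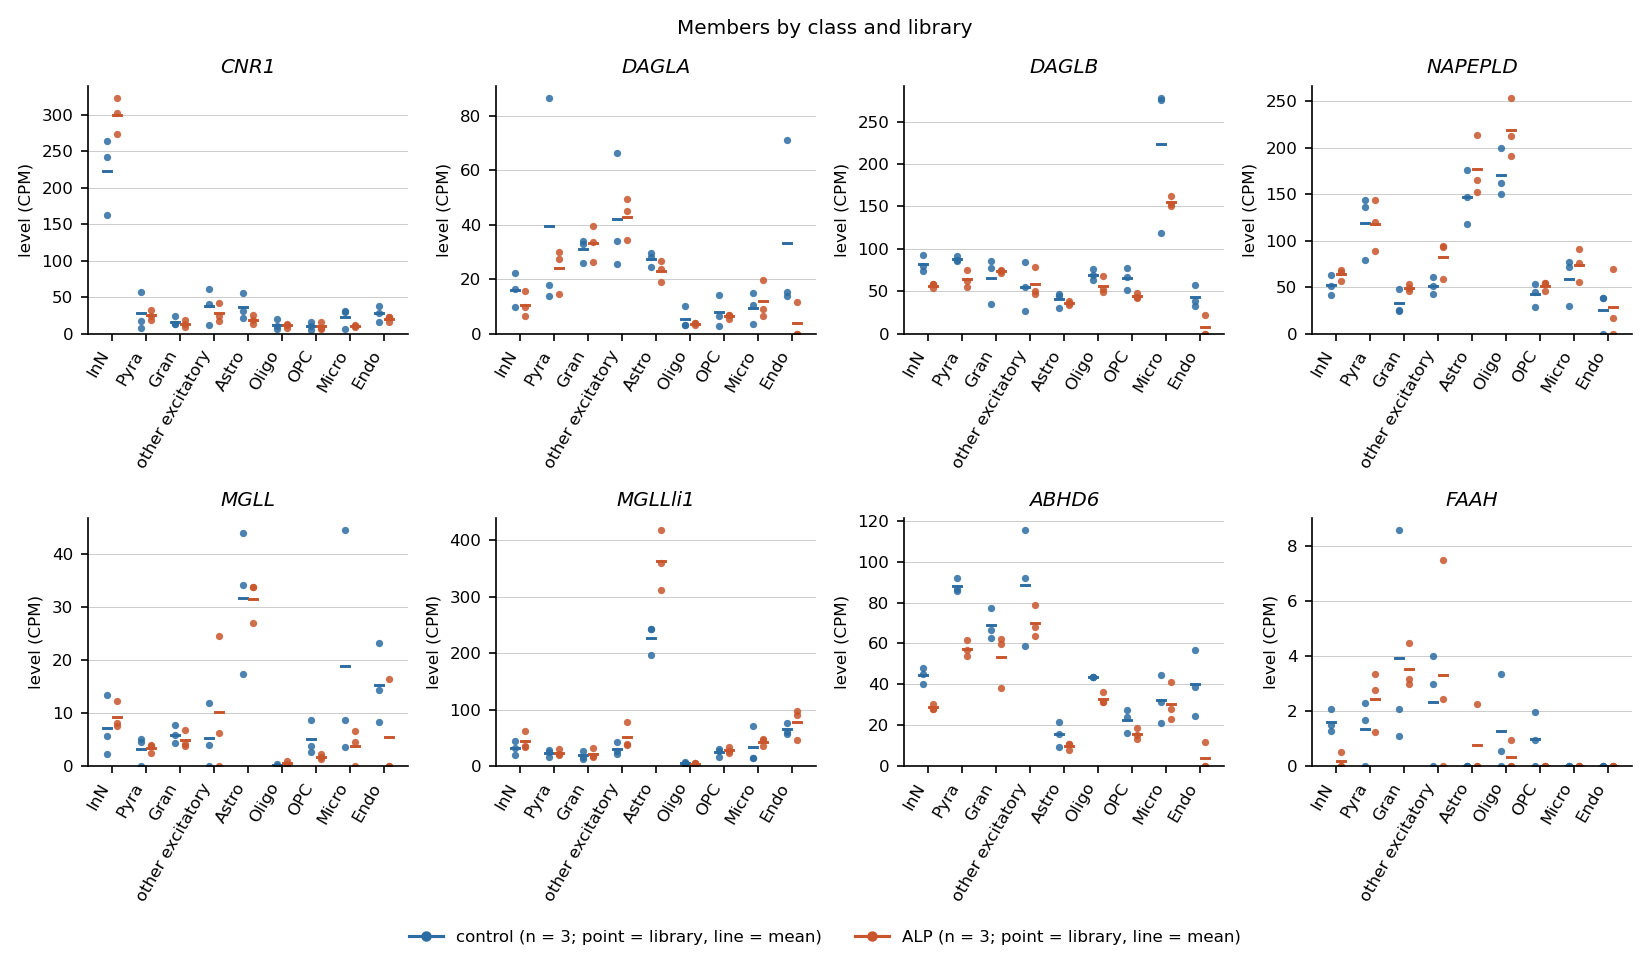
Levels of the 8 genes in CPM (vertical axes, 1 scale per gene) in 9 classes, with each library as a point and the mean of 3 libraries as a line, control TSs in blue and ALP TSs in red. CNR1 stood highest in InN-like nuclei, DAGLB in Micro-like, MGLLli1 in Astro-like and NAPEPLD in Oligo-like and Astro-like nuclei, while ABHD6 was highest in excitatory classes and FAAH stayed under 9 CPM.

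The receptor was concentrated in 1 class. CNR1 reached 242, 264 and 162 CPM in InN-like nuclei of control 1, 2 and 3, and 274, 302 and 323 CPM in those of ALP 1, 2 and 3. All 3 ALP libraries lay above all 3 control libraries, with control 3 lowest. InN-like nuclei made up 8.76% of all nuclei and held 71.5% of the CNR1 UMIs. In each of the 6 libraries their level was 4.05 to 13.4 times that of the next class. Against other excitatory nuclei, the class with the next highest median (32.4 CPM), the mean log2 difference over libraries was 3.12 ± 0.99 (SD, n = 6; exact sign-flip permutation test, two-sided, p = 0.031). That p is the smallest that 6 libraries can give, and 8 such comparisons of the leading with the next class were made, 1 for each gene. With adjustment over 8 tests no p at this limit passes 0.05. Classes, and the interneuron types below, were ordered by their medians over these same libraries before neighbours were compared. The sign-flip p-values printed here and below are unadjusted.

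Below InN-like and other excitatory nuclei the median levels of CNR1 were 23.3 CPM in Astro-like, 22.8 in Endo-like, 21.7 in Pyra-like, 15.6 in ependymal, 13.3 in Gran-like, 10.98 in Oligo-like, 10.85 in Micro-like and 9.10 in OPC-like nuclei. No step between neighbours below InN-like nuclei had an exact sign-flip p under 0.0625, the value for Gran-like over Oligo-like nuclei, where the mean log2 difference was 0.37 ± 0.28 (SD, n = 6; higher in 5 of 6 libraries). At cluster resolution 1 Gran-like nuclei were above Oligo-like, and other excitatory above Astro-like nuclei, in 6 of 6 libraries (exact sign-flip p = 0.031 each). Control 2, the library richest in InN-like nuclei, had the highest CNR1 level in Pyra-like nuclei (57.5 CPM against 7.87 to 32.2 elsewhere) and in Astro-like nuclei (56.2 CPM against 12.7 to 31.5). Free RNA from other cells can add such UMIs in droplet data, and its part in these low levels was not tested. By detection, 32.4% of InN-like nuclei had a CNR1 UMI at a median of 4261.5 UMIs per nucleus, against 1.82% of Micro-like nuclei (median 1019.5 UMIs) and 1.66% of Oligo-like nuclei (median 1338 UMIs). When each nucleus was thinned to 1000 UMIs, the shares were 15.5% of InN-like and 1.36% of Micro-like nuclei.

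Within InN-like nuclei CNR1 was graded. Reclustering, again without the 8 genes, gave CCK/ADARB2-like (495 nuclei), VIP-like (530), SST-like (479), PVALB-like (308) and LAMP5-like nuclei (114), and a cluster led by NMU and ST6GALNAC2 (403 nuclei) with too few markers for a name. A further subcluster of 115 nuclei was led by oligodendrocyte genes such as ST18, with 47.8% of it marked as doublets, and another of 28 held 67.9% marked doublets. Of the 115 nuclei, 68.7% came from control libraries, and 47.8% came from 1 library. Both subclusters stayed in the sums of InN-like nuclei. In CCK/ADARB2-like nuclei CNR1 reached 843, 729 and 469 CPM in control 1 to 3 and 942, 978 and 1058 CPM in ALP 1 to 3. Those 495 nuclei, 1.75% of the total, held 54.7% of all CNR1 UMIs, and 83.0% of them had at least 1 CNR1 UMI. Up to 22 UMIs were counted in a single nucleus, and 178 nuclei had 5 or more.

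VIP-like nuclei followed with 176 to 299 CPM over the 6 libraries, LAMP5-like with 40.4 to 104, SST-like with 9.12 to 39.3 and PVALB-like with 5.67 to 20.9. Steps from CCK/ADARB2-like to VIP-like, to LAMP5-like and to SST-like nuclei went the same way in 6 of 6 libraries each (exact sign-flip permutation test, p = 0.031 each, the smallest possible). SST-like nuclei and the NMU/ST6GALNAC2 cluster could not be ordered (p = 0.938 by the same exact test). The PVALB-like values lay close to those of Oligo-like nuclei (6.93 to 19.5 CPM).

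Of the CCK/ADARB2-like nuclei, a cluster of 335 led by COCH and SYT6 held most of the CNR1 UMIs. Its CNR1 level was 1024, 849 and 561 CPM in the control and 1142, 1131 and 1157 CPM in the ALP libraries, and 89.9% of its nuclei had a CNR1 UMI. The ALP libraries lay close together. They were above all controls, as were those for 142 of 4070 features tested in this cluster. With 1.19% of all nuclei it held 45.8% of the CNR1 UMIs. The other cluster of 160 nuclei, led by NTNG1 and EBF1, had 521, 481 and 320 CPM in control and 444, 519 and 592 CPM in ALP libraries, and here the groups overlapped. CNR1 was 1.76 to 2.57 times higher in the COCH/SYT6 cluster in all 6 libraries (exact sign-flip permutation test, p = 0.031). The NTNG1/EBF1 cluster was in turn 1.55 to 3.16 times above VIP-like nuclei (p = 0.031, same exact test).

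**Figure D2:**
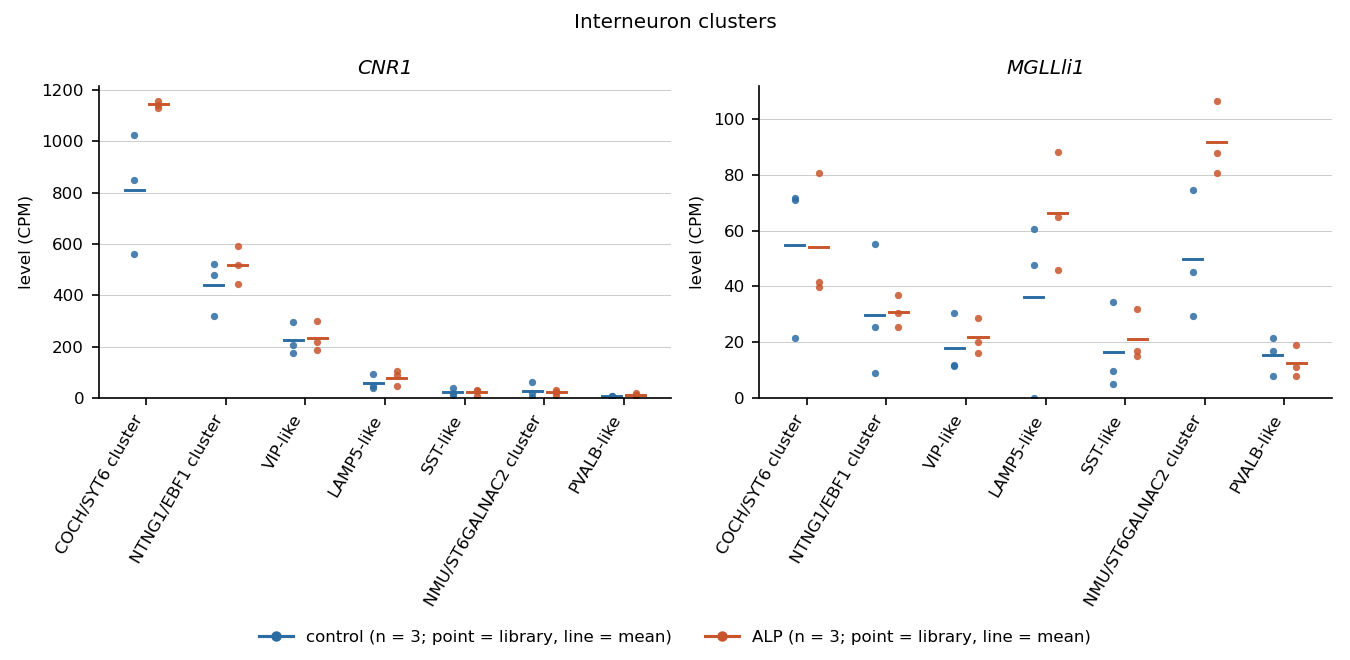
Levels of CNR1 and MGLLli1 in CPM (vertical axes) in 7 clusters or types of InN-like nuclei, with each library as a point and the mean of 3 libraries as a line, control TSs in blue and ALP TSs in red. CNR1 levels stepped down from the COCH/SYT6 cluster (561 to 1157 CPM) to PVALB-like nuclei (5.67 to 20.9 CPM), and MGLLli1 was highest in the NMU/ST6GALNAC2 cluster of ALP TSs (80.7 to 107 CPM).

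Over 66 sums of 11 classes in 6 libraries, the features with a pattern most like that of CNR1 were SERPINI1 (Pearson r = 0.68 on log2(CPM + 1)), TOX3 (0.66), GRIP1 (0.64), ELAVL2 (0.64) and SYT13 (0.62), out of 6742 candidates. The antisense-named feature CNR1-AS-1 had r = 0.73. These values are descriptive, since sums of the same library share its depth and animal and sums of the same class share its cells.

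The 2 diacylglycerol lipases differed in where they were found. Median levels of DAGLA were 39.7 CPM in other excitatory, 33.3 in Gran-like, 25.5 in Astro-like and 22.8 in Pyra-like nuclei, followed by 12.8 CPM in InN-like and 3.51 CPM in Oligo-like nuclei. In other excitatory nuclei it was 66.4, 34.0 and 25.4 CPM in control and 49.6, 34.2 and 45.1 CPM in ALP libraries, and the groups overlapped. The step from other excitatory to Gran-like nuclei did not exceed its spread (exact sign-flip p = 0.1875), whereas Gran-like nuclei were above Astro-like nuclei in 6 of 6 libraries (p = 0.031, exact). The 86.6 CPM of Pyra-like nuclei in control 3 rests on 34 nuclei, and the other 5 libraries had 13.8 to 30.02 CPM.

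Within InN-like nuclei the median of DAGLA was 26.6 CPM in the NMU/ST6GALNAC2 cluster, above PVALB-like nuclei (16.3 CPM) in 6 of 6 libraries (exact sign-flip p = 0.031), and 3.66 CPM in CCK/ADARB2-like nuclei, where only 16 DAGLA UMIs were counted.

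DAGLB was highest in Micro-like nuclei, with 276, 119 and 278 CPM in control and 162, 152 and 151 CPM in ALP libraries. Control 1 and 3 were far above the ALP libraries and control 2 below them, so the groups overlapped. Micro-like nuclei led in 6 of 6 libraries, by 1.39 to 3.21 times over the next class, and the mean log2 difference to Pyra-like nuclei was 1.26 ± 0.45 (SD, n = 6; exact sign-flip permutation test, p = 0.031). Without the upper limit on genes per nucleus the median was 245 CPM in place of 157 CPM. In other classes DAGLB was spread more evenly, with medians from 27.7 CPM in Endo-like to 80.3 CPM in Pyra-like nuclei.

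NAPEPLD, the enzyme of N-acylethanolamine release, was the most counted of the 8 genes and showed no single leading class. Oligo-like nuclei had 199.9, 150 and 162 CPM in control and 191, 212 and 253 CPM in ALP libraries. Astro-like nuclei had 146, 176 and 118 CPM in control and 152, 213 and 165 CPM in ALP libraries. In both classes the groups overlapped. Ependymal nuclei, from 67 UMIs, had a median of 172 CPM between those of Oligo-like (195 CPM) and Astro-like nuclei (158 CPM), and these 3 could not be ordered (exact sign-flip p = 0.594 and 0.75). Pyra-like nuclei came next with a median of 128 CPM, below Astro-like nuclei in 6 of 6 libraries (p = 0.031, exact). The lowest neuronal median was 46.7 CPM, in Gran-like nuclei.

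Of the hydrolases, both MGLL features were highest in astrocytes. MGLL reached 43.8, 17.3 and 34.1 CPM in Astro-like nuclei of control and 33.7, 33.7 and 26.9 CPM in those of ALP libraries, and the groups overlapped. Astro-like nuclei held 41.1% of its 470 UMIs and led all classes in 5 of 6 libraries. In Micro-like nuclei of control 2, which were few, MGLL was at 44.5 CPM.

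MGLLli1 was counted more often and followed the same class. In Astro-like nuclei it was at 243, 243 and 196 CPM in control 1 to 3, and at 312, 359 and 419 CPM in ALP 1 to 3. The groups did not overlap, and all ALP libraries were higher. Astro-like nuclei, 10.8% of the total, held 53.3% of its UMIs, and their level was 2.55 to 7.52 times that of the next class in 6 of 6 libraries. The mean log2 difference to Endo-like nuclei (median 68.7 CPM) was 2.03 ± 0.52 (SD, n = 6; exact sign-flip permutation test, p = 0.031). A UMI of MGLLli1 was found in 39.5% of Astro-like nuclei (median 1840 UMIs per nucleus) and in 0.597% of Oligo-like nuclei (median 1338 UMIs). Thinned to 1000 UMIs, these shares were 24.6% and 0.461%.

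Both MGLL features were correlated over the 66 sums (Pearson r = 0.68, descriptive as above). Among Astro-like nuclei, 48.1% of those with an MGLL UMI had one of MGLLli1, against 39.0% of the rest, not matched for UMIs per nucleus. The ratio of MGLLli1 to MGLL UMIs in these nuclei was 5.53, 14.1 and 5.75 in control and 9.25, 10.7 and 15.5 in ALP libraries, which overlap (exact permutation test over 20 arrangements, two-sided, p = 0.3). Features most like MGLL over the sums were LIN1li42 (r = 0.63), CHST1 (0.63), SLC35G2 (0.61), ABCD2 (0.60) and ITSN1 (0.60).

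ABHD6 was highest in excitatory neurons. Pyra-like nuclei had 86.0, 92.0 and 86.6 CPM in control and 61.9, 56.6 and 53.8 CPM in ALP libraries, without overlap and with ALP lower. The value of control 3 rests on 34 nuclei. In Pyra-like nuclei 1989 of 12553 features tested were likewise lower in every ALP library. Other excitatory nuclei had 92.2, 116 and 58.8 CPM in control and 68.2, 63.6 and 79.0 CPM in ALP libraries, with overlap. Medians of both classes were nearly equal (73.9 and 73.6 CPM) and were followed by Gran-like nuclei (62.4 CPM), with no step beyond its spread (exact sign-flip p = 0.4375 and 0.125). Oligo-like nuclei, at a median of 39.9 CPM, and InN-like nuclei, at 35.2 CPM, also carried it, whereas Astro-like nuclei, which led for MGLL, had 10.8 CPM.

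FAAH was at the edge of detection. Of its 80 UMIs, 23 were in Pyra-like, 21 in Gran-like, 11 in other excitatory and 9 in InN-like nuclei. No UMI was found in 1370 Micro-like nuclei, which allows a share of up to 0.219%, or in 422 Endo-like nuclei, which allows up to 0.711%. These limits cover counting error only and apply to nuclei with a UMI, not to nuclei that express the gene. A feature named FAAHli1 had 1548 UMIs, 19.4 times those of FAAH, with medians under 60 CPM in every class, and it was not used as FAAH. Apart from it, 14 antisense-named features carry the name of 1 of the 8 genes, of which 12 had a UMI. CNR1-AS-1 with 1430 and NAPEPLD-AS-1 with 927 UMIs were the most counted.

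ALP and control TSs were compared on UMIs summed per library within each class, by edgeR's quasi-likelihood test with Benjamini-Hochberg adjustment over all features tested in that class. A gene was called at an adjusted p under 0.05 and a log2 fold change beyond 0.25. No gene of the 8 was called in any class. On counts simulated for InN-like, Astro-like and Oligo-like nuclei, 34% to 37% of features changed 2-fold were called. Changes of that size were thus often missed in that setting. The simulation gave all features of a class the same spread between libraries (dispersion), so its rates need not hold for the real counts. In 8 classes 43 gene and class pairs could be tested, of which 8 (18.6%) had an unadjusted p under 0.05, against 16.5% of the 76069 tests of all features there. The former share is near that of all features. DESeq2 called 1 of the 43, MGLLli1 in Astro-like nuclei, where it called 2.03% of all feature tests in the 8 classes and 2.17% in Astro-like nuclei. The share of all features called was 0% in InN-like, Pyra-like and other excitatory nuclei, 1.24% in Gran-like, 0.126% in Astro-like, 4.84% in Oligo-like, 1.44% in OPC-like and 0.111% in Micro-like nuclei. For the classes at 0%, 2333, 1651 and 727 features had an unadjusted p under 0.05, and DESeq2 called 464, 61 and 38. In ependymal nuclei the share was 0%, with 53 features at an unadjusted p under 0.05 and 0 calls by DESeq2, and in the unnamed nuclei of low depth it was 0.0404%.

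**Figure D3:**
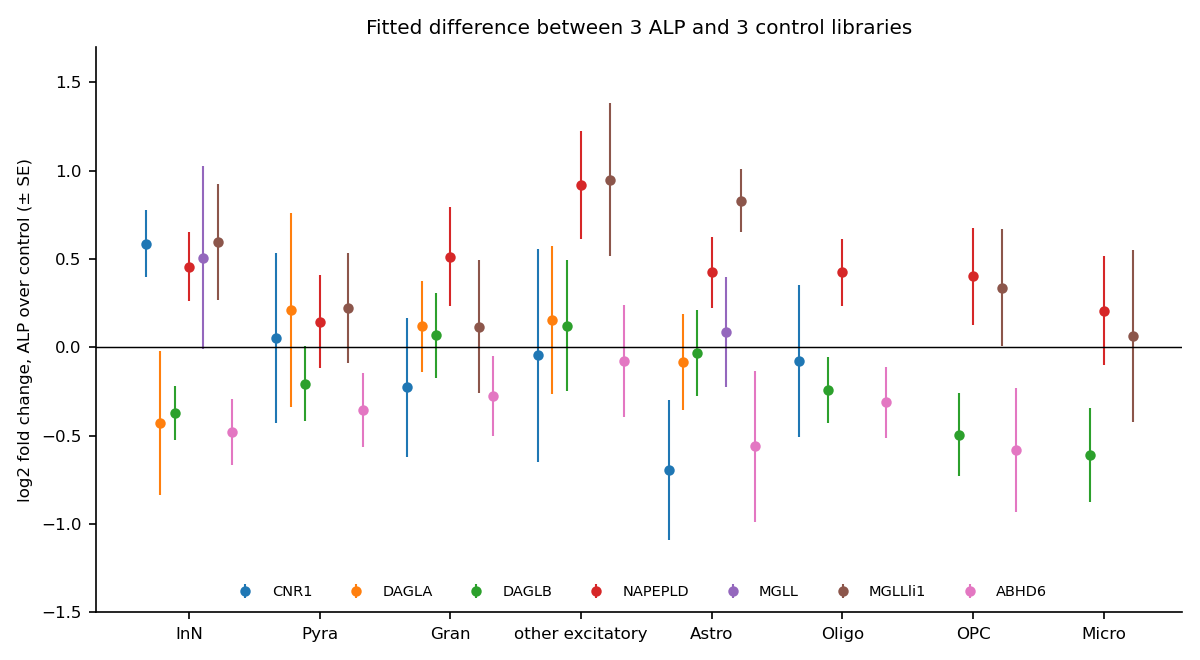
Fitted log2 fold change of ALP over control TSs (vertical axis; point, edgeR estimate from 3 and 3 libraries; bar, standard error) for 7 genes in 8 classes; FAAH had too few counts to be tested. NAPEPLD lay above 0 in 8 of 8 classes and MGLLli1 in 7 of 7, ABHD6 lay below 0 in 7 of 7, and no point passed the adjusted threshold. The classes come from the same 6 libraries, so these signs are not independent of each other.

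By the raw levels, 2 of the 43 pairs had every ALP library above every control library, CNR1 in InN-like and MGLLli1 in Astro-like nuclei, where 6.94% of all feature tests did. Every ALP library was below every control library for 7 of the 43, DAGLB in InN-like, Pyra-like and OPC-like and ABHD6 in InN-like, Pyra-like, Gran-like and Oligo-like nuclei, where 13.9% of all feature tests did. By class, 734 of 11976 features in InN-like and 627 of 9558 in Astro-like nuclei were higher in every ALP library. Lower in every ALP library were 2267 of 11976 in InN-like, 1989 of 12553 in Pyra-like and 1227 of 10188 in Gran-like nuclei. In Oligo-like and OPC-like nuclei these were 1531 of 11825 and 838 of 8238.

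For CNR1 in InN-like nuclei, the mean of the control libraries was 223 ± 53.4 CPM and that of the ALP libraries 299.6 ± 24.9 CPM (SD, n = 3 per group). The log2 fold change was 0.59 ± 0.19 (SE; edgeR adjusted p = 0.128), and 0.58 without nuclei marked as doublets. Without the filter on low counts it was 0.65 and passed the threshold (adjusted p = 0.0042). With the upper limit on genes, InN-like nuclei were 433, 299 and 484 in control and 466, 494 and 296 in ALP libraries. Without that limit, and with clusters rebuilt, they were 727, 672 and 1059 in control and 604, 723 and 348 in ALP libraries. In that setting 0 of the 8 genes were called. Summed levels of the 8 InN markers, of which 2 were at 0, ran from 7344 to 9853 CPM in control and from 6722 to 7747 CPM in ALP libraries and overlapped. In Oligo-like nuclei the same sum was 4658 to 8910 CPM in control and 3883 to 5274 CPM in ALP libraries. It thus separates these classes poorly and cannot show that the make-up of InN-like nuclei was alike. In CCK/ADARB2-like nuclei the fold change was 0.75 ± 0.22 (adjusted p = 0.178), and without control 1 it was 0.94 (adjusted p = 0.0362). ALP and control levels did not overlap there, and 182 of 5380 features tested were likewise higher in every ALP library. The COCH/SYT6 cluster gave 0.72 ± 0.22 (adjusted p = 0.182, and 0.0400 without control 1), the NTNG1/EBF1 cluster 0.30 ± 0.27 (adjusted p = 0.896) and VIP-like nuclei 0.12 ± 0.25 (adjusted p = 0.899). Whether the difference between groups was larger in CCK/ADARB2-like than in VIP-like nuclei was asked from the ratio of both levels in each library, which was 2.28 to 4.79 in control and 3.27 to 5.64 in ALP TSs (exact permutation test over 20 arrangements, p = 0.3). Shares of all features called were 0% in CCK/ADARB2-like (607 features at an unadjusted p under 0.05, 26 by DESeq2), 0.295% in the COCH/SYT6 cluster, 0% in the NTNG1/EBF1 cluster (111 and 1) and 0.271% in VIP-like nuclei. In SST-like nuclei it was 0% (589 and 12), in PVALB-like nuclei 0.0381% and in the NMU/ST6GALNAC2 cluster 0.480%.

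CCK/ADARB2-like nuclei were 17.8%, 24.4% and 22.3% of InN-like nuclei in control and 18.7%, 17.2% and 22.0% in ALP libraries. The COCH/SYT6 cluster was 11.5%, 16.1% and 13.2% in control and 12.7%, 12.3% and 17.9% in ALP libraries. Both sets of values overlapped. The NTNG1/EBF1 cluster, the one with the lower CNR1 level, was 6.24%, 8.36% and 9.09% in control and 6.01%, 4.86% and 4.05% in ALP libraries, all ALP libraries lower, and the part of this share in the CNR1 fold change of CCK/ADARB2-like nuclei was not tested.

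Outside interneurons, CNR1 gave −0.69 ± 0.40 in Astro-like nuclei (adjusted p = 0.400) and 0.05 ± 0.48 in Pyra-like nuclei (adjusted p = 0.991). In the sum of all nuclei CNR1 was at 35.7, 112 and 54.3 CPM in control and at 71.7, 71.9 and 56.5 CPM in ALP libraries, with control 2 highest and control 1 lowest, and its log2 fold change was 0.20 ± 0.37 (edgeR adjusted p = 0.784), or 0.82 without control 2 (adjusted p = 0.0466) and −0.11 without control 1. In such a sum fewer nuclei of a class and less RNA per nucleus cannot be told apart. Among all features, 0% were called in the sum of all nuclei, 5323 had an unadjusted p under 0.05 and DESeq2 called 1740.

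CNR1-AS-1, the antisense-named feature of the receptor, was followed beside it. In InN-like nuclei it was at 118, 162 and 158 CPM in control and at 61.9, 74.6 and 69.8 CPM in ALP libraries, all ALP libraries lower, with a log2 fold change of −0.94 ± 0.17 (edgeR adjusted p = 0.0522). For each CNR1 UMI there were 0.485, 0.615 and 0.975 UMIs of CNR1-AS-1 in control and 0.226, 0.247 and 0.216 in ALP libraries. These ratios did not overlap (exact permutation test over 20 arrangements, p = 0.1, the smallest that 3 against 3 allow). CNR1-AS-1 was found in 52.0% of InN-like nuclei with a CNR1 UMI and in 7.95% of those without. These shares were not matched for UMIs per nucleus or for interneuron type. CNR1-AS-1 gave −1.49 ± 0.33 in VIP-like nuclei (adjusted p = 0.0758) and −0.68 ± 0.18 in CCK/ADARB2-like nuclei (adjusted p = 0.141). In Astro-like nuclei, where CNR1 was negative too, it gave −2.08 ± 0.61 (adjusted p = 0.121).

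Antisense-named features as a whole were also lower in ALP libraries. The other 22594 of them took 6.91%, 6.12% and 9.92% of the UMIs of InN-like nuclei in control and 4.74%, 4.93% and 4.14% in ALP libraries. Over the 8 classes their median log2 fold change was −0.62 to −0.31, or −0.38 to −0.26 without control 3, and 66.0% to 79.9% of them were negative, against 43.4% to 49.0% of all other features. The use of strand in counting is not stated, so that UMIs of CNR1 and CNR1-AS-1 may be divided by annotation and cannot be told apart with certainty. With both features added up, the log2 fold change in InN-like nuclei was 0.15 (adjusted p = 0.626), an alternative chosen after the data were seen. The part of the antisense-named shift in the CNR1 difference was not tested further.

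**Figure D4:**
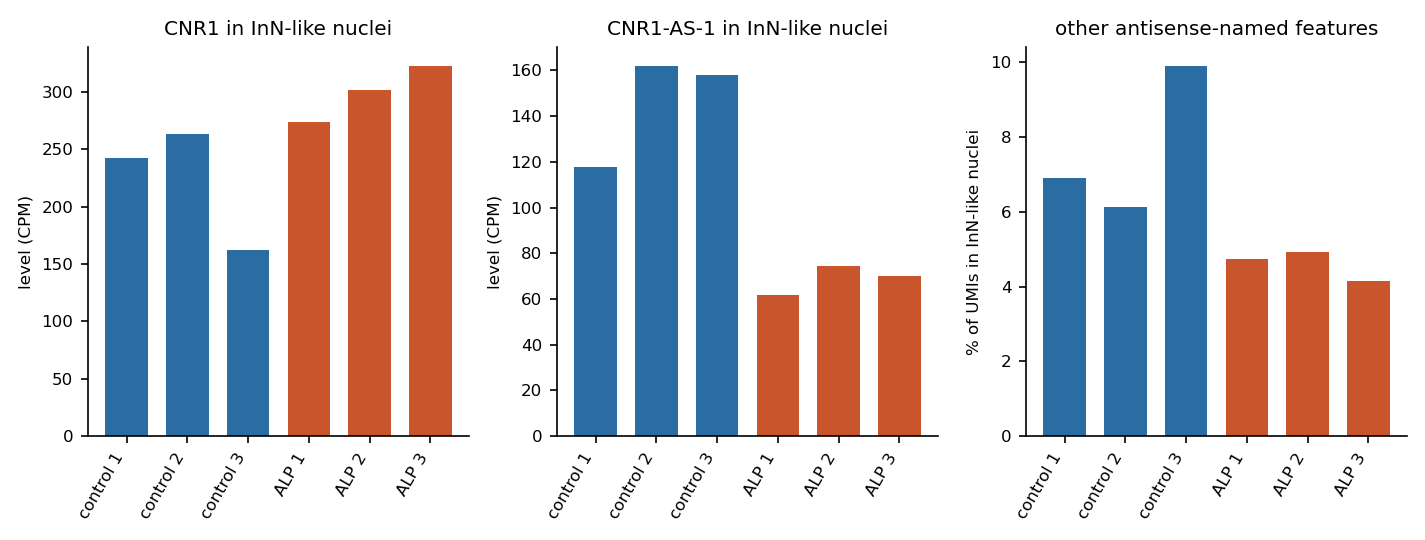
CNR1 and CNR1-AS-1 in CPM and the share of UMIs of the other 22594 antisense-named features in percent (vertical axes, from 0) in InN-like nuclei, 1 bar per library, control TSs in blue and ALP TSs in red. CNR1 was higher in all 3 ALP libraries, while CNR1-AS-1 and the antisense-named share were lower in all 3.

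MGLLli1 in Astro-like nuclei had the smallest adjusted p among the 8 genes. The mean of the control libraries was 227 ± 27.1 CPM and that of the ALP libraries 363 ± 53.3 CPM (SD, n = 3 per group). The log2 fold change was 0.83 ± 0.18 (edgeR adjusted p = 0.0612). By DESeq2 it was 0.82 with an adjusted p of 0.0164, and edgeR's adjusted p was 0.0436 without control 2, 0.0469 without ALP 2 and 0.0032 without the filter on low counts. The share of Astro-like nuclei with a UMI, thinned to 1000 UMIs, averaged 19.9% in control and 29.5% in ALP libraries (exact permutation test, p = 0.1, the smallest possible). Summed levels of the 8 Astro markers were 4473 to 5291 CPM in control and 5324 to 5814 CPM in ALP libraries and did not overlap either, and their part in the MGLLli1 difference was not tested. MGLL itself gave 0.09 ± 0.31 there (adjusted p = 0.913).

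Over all classes tested, Astro-like nuclei included, MGLLli1 fold changes were positive in 7 of 7 (0.07 to 0.95). With library totals in place of TMM factors, however, Pyra-like and Micro-like nuclei were at −0.04. Signs over classes of the same 6 libraries are not independent, here and for the genes below. The share of all features with the same sign in every class is not given. Other excitatory nuclei, at 41.6, 27.2 and 21.4 CPM in control and 37.2, 39.1 and 77.1 CPM in ALP libraries, gave 0.95 ± 0.43 (adjusted p = 0.442), which was 1.51 at cluster resolution 1 and 0.61 without the upper limit on genes. In the NMU/ST6GALNAC2 cluster MGLLli1 was at 74.6, 45.3 and 29.3 CPM in control and 107, 87.9 and 80.7 CPM in ALP libraries. These groups did not overlap, and the log2 fold change was 1.12 ± 0.35 (adjusted p = 0.174), or 1.53 without control 1 (adjusted p = 0.0146). In this cluster 229 of 4588 features tested were higher in every ALP library. InN-like nuclei as a whole gave 0.60 ± 0.33 for MGLLli1 (edgeR adjusted p = 0.349). CCK/ADARB2-like nuclei gave 0.26 ± 0.44 (adjusted p = 0.885), and the COCH/SYT6 cluster within them 0.18 ± 0.44 (adjusted p = 0.932).

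NAPEPLD had positive fold changes in 8 of 8 classes (0.15 to 0.92), except that Pyra-like nuclei were at −0.12 with library totals in place of TMM factors. Other excitatory nuclei had 42.6, 61.2 and 50.8 CPM in control and 58.9, 93.0 and 94.0 CPM in ALP libraries, and gave 0.92 ± 0.31 (edgeR adjusted p = 0.294), which became 0.36 without the upper limit on genes. Fold changes were 0.42 ± 0.19 in Oligo-like (adjusted p = 0.217), 0.42 ± 0.20 in Astro-like (adjusted p = 0.317) and 0.46 ± 0.20 in InN-like nuclei (adjusted p = 0.237). The Oligo-like values rest on clusters that were mostly of 1 group, the 4 largest being 9.40%, 11.3%, 86.2% and 93.1% of control origin.

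ABHD6 had negative fold changes in 7 of 7 classes (−0.58 to −0.08), also with upper-quartile factors. With library totals they were negative too, but the class medians of all features were then −0.25 to −0.06. InN-like nuclei had 40.3, 45.0 and 47.9 CPM in control and 27.7, 30.2 and 28.1 CPM in ALP libraries. The groups did not overlap, and 2267 of 11976 features tested there were likewise lower in every ALP library. The log2 fold change of ABHD6 was −0.48 ± 0.19 (edgeR adjusted p = 0.197). Pyra-like nuclei gave −0.35 ± 0.21 (adjusted p = 0.506) and Oligo-like nuclei −0.31 ± 0.20 (adjusted p = 0.406). Within the COCH/SYT6 cluster ABHD6 was at 47.8, 60.6 and 71.0 CPM in control and at 29.7, 8.53 and 25.9 CPM in ALP libraries, from 66 UMIs in all, with −1.28 ± 0.44 (adjusted p = 0.227). In the sum of all nuclei the raw levels of ABHD6 were lower in every ALP library (35.9 to 41.3 CPM against 43.8 to 47.7 CPM), as were those of 5101 of 22749 features tested. Its fitted log2 fold change, which includes TMM factors, was −0.03 ± 0.14.

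DAGLB had negative fold changes in 6 of 8 classes. With library totals in place of TMM factors it had them in 8 of 8, but the class medians of all features were then −0.25 to −0.06. InN-like nuclei had 92.6, 79.6 and 73.7 CPM in control and 58.8, 58.0 and 53.3 CPM in ALP libraries. All ALP libraries were lower, with −0.37 ± 0.15 (edgeR adjusted p = 0.216), which became −0.08 without the upper limit on genes. Micro-like nuclei gave −0.61 ± 0.27 (adjusted p = 0.354), and −0.76 without control 2 (adjusted p = 0.0412). OPC-like nuclei, with 51.0 to 77.2 CPM in control and 42.5 to 48.1 CPM in ALP libraries, gave −0.49 ± 0.23 (adjusted p = 0.343). DAGLA had adjusted p-values of 0.613 or more in all 5 classes tested. FAAH could be tested only in the sum of all nuclei, where it gave 0.66 ± 0.40 (adjusted p = 0.343).

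Shares of nuclei with a UMI were compared for 168 pairs of a gene and a class or type after thinning to 1000 UMIs. With 3 against 3 libraries no p could be below 0.1, a value that 33 pairs reached, and the smallest adjusted p was 0.509 (exact permutation test, two-sided).

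Other genes of the pathway were taken from a list of 40 with receptors, receptor partners, further enzymes, carriers, the Gq route upstream and the targets downstream, of which 37 were among the features. In the 8 classes, 23 of them could be tested in 151 gene and class pairs, and 0 were called. By edgeR 16 pairs (10.6%) had an unadjusted p under 0.05, against 16.5% of the tests of all features there. Of these 16 pairs 13 were negative, and the share of negative values among all features at that p is not given. The median log2 fold change of the 151 pairs was −0.13. Closest to the threshold was ALOX15, a lipoxygenase, in InN-like nuclei at −1.60 ± 0.32 (edgeR adjusted p = 0.0535). CACNA1A, the pore subunit of P/Q-type calcium channels on which presynaptic inhibition acts, was at −0.66 ± 0.15 in Gran-like (adjusted p = 0.0592), −1.51 ± 0.31 in Astro-like (adjusted p = 0.0612) and −0.72 ± 0.18 in OPC-like nuclei (adjusted p = 0.0627). It was also at −0.66 in Pyra-like (adjusted p = 0.249), −0.62 in Oligo-like (adjusted p = 0.183) and −0.51 in Micro-like nuclei (adjusted p = 0.402). In InN-like nuclei it was at −0.13 (adjusted p = 0.750) and in other excitatory nuclei at 0.23 (adjusted p = 0.810). ALOX15 and CACNA1A were picked for their adjusted p after it was seen. By class the median of the list ran from −0.28 in Oligo-like to 0.28 in Micro-like nuclei, where the medians of all features were −0.0021 and 0.0075.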

How the data were processed

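Nuclei of the hippocampus of 3 control and 3 ALP TSs were sequenced on the 10x Genomics 3′ platform (v3.1 kit), 1 library per animal. The authors deposited raw counts, UMIs per feature and barcode as Cell Ranger wrote them against TreeshrewDB. The labels give version 3.1.0 and the matrix headers 6.1.2, and build and use of strand are not given in the sources used here. No sequence or position was used. The 8 genes, lists, markers and tests were chosen with earlier results of these data known.

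Kept nuclei had 200 to 2500 genes and at most 5% mitochondrial UMIs, counted from 1 feature. They were scaled to 10000 UMIs, log-transformed and clipped at 10. From 2000 variable genes, without the 8 genes and features named after them, 30 principal components and 20 neighbours were clustered with leidenalg 0.10.2 at resolution 2 (interneurons: 20 components, resolution 0.5). Names needed 3 markers found in at least 3% of nuclei at a fold of at least 1.5; clusters with at least 15% marked doublets (scored by simulated doublets, otherwise kept) or of low depth stayed unnamed. The thresholds were set with the data in view. Sums of UMIs over the nuclei of a class in a library, of 10 nuclei or more, went into edgeR's quasi-likelihood test (version 4.0.16, R 4.3.3) with TMM factors and filterByExpr at a minimum count of 10. CPM carry no TMM factors. Where nothing says that replicates came from separate preparations, p-values measure the spread between these samples. DESeq2 1.42.0 was an alternative. Levels, ratios and shares were compared by exact permutation tests, 64 sign flips over 6 libraries or 20 arrangements of 3 against 3. Genes named were the 8 in all classes, features named after them, the 5 most like CNR1 and MGLL with a mean of at least 20 CPM, and called genes of the pathway list, of which there were 0; ALOX15 and CACNA1A were named outside this rule, after their values were seen. The edgeR test was tried on simulated counts of InN-like, Astro-like and Oligo-like nuclei, with the same dispersion for all features of a class. It called 34%, 35% and 37% of features changed 2-fold, and 92%, 95% and 94% of those changed 4-fold. The study's test over nuclei with sex as covariate was not used, since nuclei of 1 animal are not independent. Replicate numbers did not pair the samples.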

Additional observations from a re-analysis of the deposited data

How the results depend on the processing

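Of 457 alternative fits of 26 named gene and class pairs, 433 kept direction and side of the threshold, 12 passed it and 12 changed sign. Of the 8 genes, 0 were called in the main test; within classes DESeq2 called 1 and the test without a filter on low counts 2, and leaving out 1 library gave 0 to 2 calls (2 without control 2, 1 without ALP 2). Within interneuron types the test without filter gave 2 and leaving out 1 library 0 to 2 (2 without control 1, where a cluster within 1 type gave 1 more), and in all nuclei 0 to 1, where without control 2 CNR1 was at 0.82 (adjusted p = 0.0466). CNR1 passed without the filter in InN-like (0.65, adjusted p = 0.0042) and CCK/ADARB2-like nuclei (0.77, 0.0161), and without control 1 in the latter (0.94, 0.0362) and the COCH/SYT6 cluster (0.93, 0.0400). MGLLli1 in Astro-like nuclei passed without the filter (0.88, 0.0032), without control 2 (0.92, 0.0436) and without ALP 2 (0.90, 0.0469), and in the NMU/ST6GALNAC2 cluster without the filter (1.25, 0.0414) and without control 1 (1.53, 0.0146). DAGLB in Micro-like nuclei passed without control 2 (−0.76, 0.0412). Of all features, the test without filter called 3.45% in InN-like, 0.900% in CCK/ADARB2-like, 1.73% in Astro-like nuclei and 0.855% in the NMU/ST6GALNAC2 cluster. Without control 1 it was 1.95% in CCK/ADARB2-like nuclei and 2.18% and 6.36% in the COCH/SYT6 and NMU/ST6GALNAC2 clusters, without control 2 it was 2.00% in Astro-like, 6.46% in Micro-like and 9.20% in all nuclei, and without ALP 2 it was 2.33% in Astro-like nuclei.

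Signs changed for CNR1 in VIP-like nuclei (−0.44 with CNR1-AS-1 added, −0.08 without control 1; −0.0893 to 0.36 over libraries left out), CNR1 in all nuclei (−0.0022 with library totals, −0.15 with CNR1-AS-1 added, −0.11 without control 1), MGLL in Astro-like nuclei (−0.0823 with library totals; −0.14, without control 2, to 0.30), DAGLA in other excitatory nuclei (−0.0755 with library totals; −0.17, without control 3, to 0.81) and DAGLA in Gran-like nuclei (−0.0342 without the limit on genes; −0.0267, without ALP 3, to 0.28). At resolution 1 and without marked doublets (an order recomputed after the data were seen) the leading class of ABHD6, and without the limit on genes that of FAAH, became other excitatory nuclei. The cause was not tested.

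Replicate numbers were no pairing (correlations −0.11 to 0.08 over 8 classes). With a replicate block 0 of the 8 genes were called, CNR1 in InN-like nuclei was at 0.61 (adjusted p = 0.197) and MGLLli1 in Astro-like nuclei at 0.82 (0.0910), and calls over all features and classes fell from 887 to 266. Those calls were 3429 by DESeq2, 9982 without filter, 2514 with library totals, 5257 without control 2, 2292 without control 1, 1793 without ALP 2, and 30, 16 and 7 without control 3, ALP 1 and ALP 3. With library totals the class medians of all features were −0.25 to −0.06, against −0.01 to 0.03 with TMM factors, and the share of higher calls was 13.3% in place of 32.9%; it was 44.7% with the block and 19.97% with a term for Y-linked transcripts.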

Other observations

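Transcripts of 4 Y-linked genes (DDX3Y, KDM5D, USP9Y and UTYli1) were at 117 and 120 CPM in control 1 and 2 and at 128 CPM in ALP 2, and at 0.192 to 1.51 CPM in control 3, ALP 1 and ALP 3, so that 2 of 3 control and 1 of 3 ALP libraries had them. With a term for these libraries, an alternative chosen after the data were seen, CNR1 in InN-like nuclei was at 0.70 (edgeR adjusted p = 0.0982) and MGLLli1 in Astro-like nuclei at 0.85 (adjusted p = 0.0762), and 0 of the 8 genes were called.

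NAPEPLD-AS-1, the other well-counted antisense-named feature of the pathway, was at −1.46 ± 0.35 in InN-like nuclei (edgeR adjusted p = 0.0667), where NAPEPLD itself was at 0.46. In Oligo-like nuclei there were 0.155, 0.111 and 0.204 UMIs of it for each NAPEPLD UMI in control and 0.128, 0.0835 and 0.0567 in ALP libraries, and these ratios overlapped (exact permutation test, p = 0.2). FAAHli1 was at 26.1, 16.3 and 18.5 CPM in all nuclei of control and 32.4, 20.7 and 30.6 CPM in those of ALP libraries, with overlap and a log2 fold change of 0.67 ± 0.25 (edgeR adjusted p = 0.158). The unnamed nuclei of low depth, 2883 in all and 1476 of them from control 3, had CNR1 at 60.9, 88.2 and 86.7 CPM in control and 42.4, 57.0 and 63.8 CPM in ALP libraries. Their own log2 fold change of CNR1 was −0.61 ± 0.35 (edgeR adjusted p = 0.627).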
